A study of Mus musculus with 8 samples.

Results

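The 9 genes described here are known as genes of microglia, the resident immune cells of the brain. They were taken as a fixed list from 31053 genes in the count tables: the homeostatic genes Cx3cr1, P2ry12 and Tmem119, the complement genes C1qa, C1qb and C1qc, and Trem2, Tyrobp and Spp1, which are commonly read as genes of activated microglia. Their levels were compared between cells marked by Csf1r and Cd68 and the other cell populations. The data are single-cell RNA counts of the microdissected dentate gyrus of 8-week-old male Nestin-GFP mice on day 15 after surgery. Control mice had a sham craniotomy, and TBI mice had a unilateral controlled cortical impact, a model of traumatic brain injury. Both groups carried the Nestin-GFP transgene, in which control elements of the nestin gene drive green fluorescent protein, and the cells of both were sorted for this fluorescence. The sample labels list 4 Control and 4 TBI animals and the study's methods state more, but the animals of a condition were pooled, so that the data are 2 libraries, 1 for each condition.

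Which table is Control and which is TBI was read from barcodes listed per condition in the study: all 356 Control and all 320 TBI barcodes were found in the matching table, and 0 in the other. The libraries shared 3 barcodes. After a filter on cells, 3049 Control cells with a median of 6928 UMIs and 5036 TBI cells with a median of 5663 UMIs were left. A UMI is a random tag that marks 1 captured RNA molecule. Levels are given as CPM, the UMIs of a gene in a population per 1000000 UMIs of that population without Malat1. With 1 library a condition there is no replicate, no test was possible, and all intervals are 95% intervals that cover counting error only.

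Homeostatic microglia carry receptors that sense their surroundings. Cx3cr1 binds fractalkine, a chemokine displayed by neurons, P2ry12 senses nucleotides that leak from damaged cells, and Tmem119 is a membrane protein used to tell microglia from other macrophages. C1qa, C1qb and C1qc encode the chains of C1q, the recognition molecule of the classical complement pathway, which in the brain also tags synapses. Trem2 is a receptor for lipids and lipoproteins that signals through the adaptor Tyrobp (DAP12). Spp1 encodes osteopontin, a secreted glycoprotein that binds integrins and Cd44, and is often found among the genes that microglia raise in injury and degeneration.

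The genes lie on several chromosomes of the mouse genome build GRCm38. Tmem119 is at chr5:113793729-113800516 on the minus strand, Trem2 at chr17:48346401-48354147, Tyrobp at chr7:30413760-30417585 and Spp1 at chr5:104435118-104441050, all on the plus strand. Cx3cr1, at chr9:119901616-120069879 on the minus strand, is annotated over a long stretch that other genes overlap. The C1q genes stand side by side on the minus strand of chromosome 4, with C1qb at chr4:136880129-136886187, C1qc at chr4:136889804-136893065 and C1qa at chr4:136895917-136898803, and with 3616 and 2851 bases between them. Upstream sequences from RefSeq (GRCm38.p6) were found for 6 of the 9 genes. PU.1, a transcription factor that macrophages and microglia depend on, is known to bind the PU box GAGGAA. This motif was searched on both strands in the 150 bases before the start of transcription, where 4754 of 32851 promoters (14.5%) held it. It was found before C1qb, Trem2 and the first of 2 listed starts of Spp1, and not in the windows of Cx3cr1, P2ry12, C1qc and the second start of Spp1. Within 250 bases, where 23.3% of promoters held it, C1qc had a match too, and Cx3cr1, P2ry12 and that second start had none. The 150-base windows of Cx3cr1 and C1qc, taken from the RefSeq starts, lie inside the gene spans given above. The windows of a C1q gene, of Trem2, of P2ry12 and of the gene that turned out to differ most from the rest, Spp1, are printed 5′ to 3′ on the strand of the gene, with the motif in capitals.
C1qb, chr4:136886201-136886350, minus strand: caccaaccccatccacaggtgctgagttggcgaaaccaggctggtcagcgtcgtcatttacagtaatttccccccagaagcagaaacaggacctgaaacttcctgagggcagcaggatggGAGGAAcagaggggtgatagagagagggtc
Trem2, chr17:48346251-48346400, plus strand: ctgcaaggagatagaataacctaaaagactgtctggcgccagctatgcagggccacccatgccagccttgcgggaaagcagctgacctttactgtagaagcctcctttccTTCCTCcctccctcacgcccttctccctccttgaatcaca
Spp1, first start, chr5:104434961-104435110, plus strand: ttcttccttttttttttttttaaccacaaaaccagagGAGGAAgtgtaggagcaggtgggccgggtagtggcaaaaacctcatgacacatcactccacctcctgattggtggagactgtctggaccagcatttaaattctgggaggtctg
P2ry12, chr3:59262986-59263135, minus strand: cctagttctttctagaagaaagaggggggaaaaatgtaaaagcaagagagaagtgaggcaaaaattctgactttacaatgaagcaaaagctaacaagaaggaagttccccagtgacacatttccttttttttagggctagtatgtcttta
In Trem2 the motif lies on the other strand and reads TTCCTC on the printed one. A match is a description of these letters and not a binding site, and a window without one says nothing about the factor.

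A total of 127 cells, 38 in the Control and 89 in the TBI library, fell into clusters that were named microglia-like from 10 marker genes that exclude the 9 genes described here. They made up 1.25% of the Control cells (interval 0.883% to 1.71%) and 1.77% of the TBI cells (interval 1.42% to 2.17%), shares that the sort for green fluorescence can set. Nes, the gene of nestin, stood at 10.6 CPM in the Control and 8.90 CPM in the TBI microglia-like cells, against 47.4 and 54.1 CPM in NSC-like cells (neural stem cell-like). The Control value rests on few UMIs and lies below 15.8 CPM, the level that 3 UMIs give there. Nes was higher still in endothelial-like cells, at 420.5 and 465 CPM, and in mural-like cells, at 228 and 285 CPM. Astrocyte-like cells had 10.4 and 5.58 CPM. At least 1 UMI of Csf1r, the receptor for the growth factor that microglia need to survive, was found in 34 of 38 and 79 of 89 cells, and of Cd68, a lysosomal protein of macrophages, in 25 and 66. Both were found together in 24 Control and 64 TBI cells, and 0 of the 7958 other cells held both, which allows a share of up to 0.0377%, at 3 counts. All 10 microglia markers were detected in either library. Of 8 markers of border-associated macrophages, Pf4, Cbr2, F13a1, Ms4a7, Lyve1 and Cd163 were at 0 in all 127 cells, and the list summed to 116 CPM in either library. The other 2, Mrc1 and Stab1, were detected, and a UMI of the list was found in 13 of 38 Control and 37 of 89 TBI cells.

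The microglia-like cells formed 2 clusters. The RNA-rich cluster held 20 Control and 61 TBI cells with medians of 8252 and 6751 UMIs, and was led by Ctss, Ccl4 and Csf1r. The low-RNA cluster held 18 Control and 28 TBI cells with medians of 1582 and 1616 UMIs, and Ccl5, Lyz2, Cd52 and Fcer1g led it. It made up 47.4% of the Control microglia-like cells (interval 31.0% to 64.2%) and 31.5% of the TBI ones (interval 22.0% to 42.2%). Mitochondrial UMIs had medians of 3.79% and 5.14% in the RNA-rich cluster and 7.14% and 8.34% in the low-RNA cluster. Both Csf1r and Cd68 were found in 19 of 20 Control and 54 of 61 TBI RNA-rich cells, and in 5 of 18 and 10 of 28 low-RNA cells. Csf1r stood at 2368 and 2022 CPM in the RNA-rich and 1592 and 821 CPM in the low-RNA cluster. Cd68 stood at 486 and 405 CPM and at 284 and 505 CPM. The name of the low-RNA cluster is less sure than that of the other. Its mean standardized marker level was 3.51 for microglia, with 9 markers in at least 10% of cells and 1 among its top 10 genes, against 4.13 for lymphocytes, a name it could not take with fewer than 3 such markers. In the RNA-rich cluster the level was 4.01 for microglia and 1.20 for macrophages, the next. Of 6 lymphocyte markers 1 was detected in the Control and 4 in the TBI microglia-like cells, with 22 UMIs in 1 cell and 21 UMIs in 2 cells, all in the low-RNA cluster, while Cd3e and Cd2 were at 0. Including the chemokine Ccl5, 1 Control and 4 TBI cells of that cluster held such a UMI, and all 124 Control UMIs of Ccl5 came from 1 cell. Without these cells and 1 more in the RNA-rich cluster, the TBI to Control ratios of the listed genes lay between 0.731 and 1.09. Scrublet called 1 of the 127 cells a doublet.

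Outside Spp1, the listed genes were nearly restricted to these cells. The 127 cells, 1.57% of all cells with 1.21% of all UMIs, held 16581 of the 16852 UMIs of the 8 genes, or 98.39% (interval 98.19% to 98.58%). By gene, the share in microglia-like cells ran from 95.22% for P2ry12 and 96.44% for Tmem119 to 99.32% for Cx3cr1. At least 1 of the 8 genes was found in 125 of the 127 cells, and all 8 in 87. Outside the microglia-like clusters 178 of 7958 cells held any, and none of these held all 8. Cells with 5 or more UMIs numbered 6 there and carried 91 of the 271 outside UMIs. Among them, 1 TBI cell of the RG-like population (radial glia-like) held 13 UMIs of C1qa, 10 of C1qb and 5 of C1qc. These were all the UMIs of the 3 genes in TBI RG-like cells, where C1qa came to 7.58 CPM, C1qb to 5.83 CPM and C1qc to 2.91 CPM. The same cell held 2 UMIs of Cx3cr1, 2 of Trem2 and 1 of Tyrobp, while TBI RG-like cells held 2 UMIs of each of these genes in all. The RG-like levels of these genes given below thus rest largely on this cell.

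**Figure D1:**
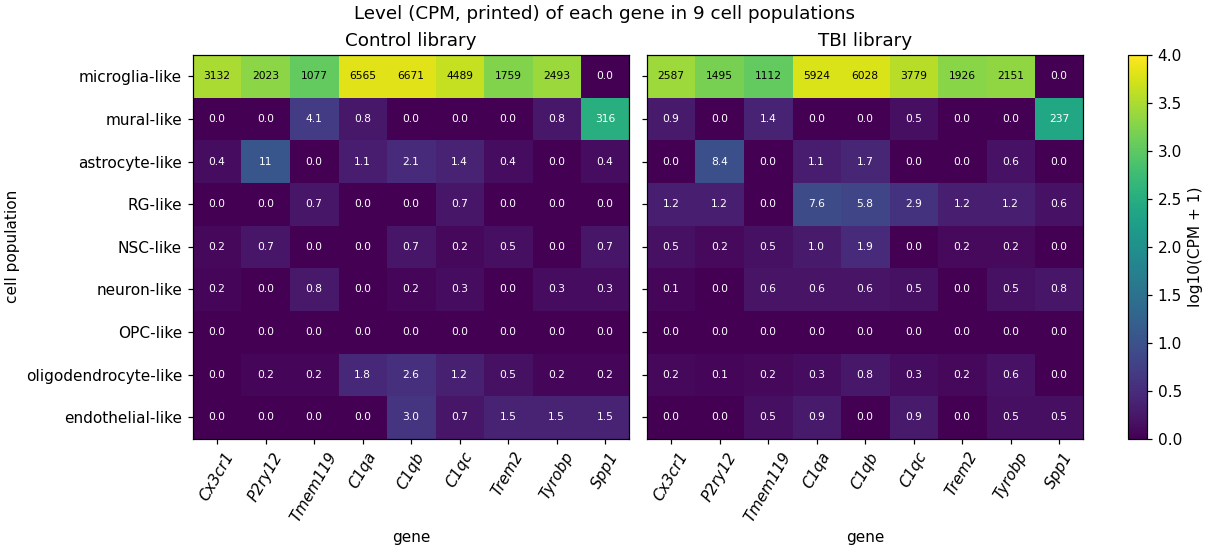
Level in CPM of each of the 9 genes (columns) in 9 named cell populations (rows) of the Control (left) and TBI (right) library, with the value printed and colour on a log10(CPM + 1) scale. In the microglia-like row 8 genes lie between 1077 and 6671 CPM and Spp1 at 0, while Spp1 is highest in the mural-like row at 316 and 237 CPM.

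Cx3cr1 stood at 3132 CPM (2885 to 3394) in the Control and 2587 CPM (2441 to 2740.2) in the TBI microglia-like cells, and at 1.17 CPM or less in every other named population. Taking 3 UMIs as the floor, it was at least 2918-fold higher than in astrocyte-like cells of the Control and at least 1479.5-fold higher than in RG-like cells of the TBI library, the populations next in order. OPC-like cells (oligodendrocyte precursor-like), with 0 UMIs of Cx3cr1 in few cells, have a higher floor of 13.6 and 8.21 CPM. Tmem119 stood at 1077 CPM (935 to 1236) and 1112 CPM (1017 to 1214). Its highest level in another named population was in mural-like cells, at 4.10 CPM from 5 UMIs in the Control and 1.42 CPM from 3 UMIs in the TBI library. Of these 8 UMIs, 6 were in a 30-cell cluster led by Dcn and Lum, genes of matrix proteins, where 5 cells held Tmem119. With both libraries summed, Tmem119 stood at 51.6 CPM in that cluster. Among the named populations neuron-like cells came next, at 0.847 CPM (0.275 to 1.98) and 0.632 CPM, with intervals that overlapped those of mural-like cells.

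P2ry12 was found in astrocyte-like cells in both libraries. It stood at 2023 CPM (1825 to 2236) in the Control and 1495 CPM (1384 to 1612) in the TBI microglia-like cells. In astrocyte-like cells it reached 10.7 CPM (7.24 to 15.3) in the Control library, from 30 UMIs in 26 cells, and 8.37 CPM (4.68 to 13.8) in the TBI library, from 15 UMIs in 14 cells. These intervals did not overlap those of the population next in order, NSC-like cells at 0.718 CPM (0.148 to 2.10) in the Control and RG-like cells at 1.17 CPM (0.141 to 4.21) in the TBI library. OPC-like cells had 0 CPM of P2ry12, with upper limits of 16.8 CPM in the Control and 10.1 CPM in the TBI library. These limits reach into the intervals of astrocyte-like cells, so astrocyte-like and OPC-like cells could not be told apart in P2ry12. With both libraries summed, P2ry12 lay between 9.12 and 16.9 CPM in the 4 astrocyte-like clusters that held most of it. These were picked by having more than 3 UMIs of P2ry12, so the range does not describe all astrocyte-like clusters. The clusters led by Hopx (89 cells, median 6868 UMIs) and Ttr (281 cells, median 1516 UMIs) each held 3 or fewer. Thinned to 2000 UMIs a cell, 1.97% of 609 Control astrocyte-like cells (interval 1.02% to 3.42%) and 1.45% of 415 TBI ones (0.532% to 3.12%) kept a UMI. Of oligodendrocyte-like cells 0 of 549 and 0 of 1013 did, with upper limits of 0.670% and 0.363%. Before thinning the shares were 3.50% and 1.97% at median depths of 3626 and 2417 UMIs, and 0.175% and 0.0905% in oligodendrocyte-like cells at 10149.5 and 8256 UMIs.

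Few molecules of the other microglial genes accompanied P2ry12 in astrocyte-like cells. For each UMI of C1qa there were 0.308 UMIs of P2ry12 (0.274 to 0.346) in Control microglia-like cells, but 10.0 (3.11 to 51.2) in Control astrocyte-like cells. In the TBI library the values were 0.252 (0.232 to 0.275) and 7.50 (1.74 to 67.6). P2ry12, at chr3:59216272-59262871 on the minus strand, overlaps Med12l on the plus strand. Med12l was itself higher in astrocyte-like cells, at 30.1 and 25.1 CPM, than in oligodendrocyte-like cells, at 2.99 and 1.62 CPM. Neuron-like cells had 10.3 and 8.98 CPM of Med12l, from 61 and 71 UMIs, and 0 CPM of P2ry12 in both libraries. Of the astrocyte-like cells with P2ry12, 4 of 26 Control and 3 of 14 TBI cells also held a UMI of Med12l. Among all astrocyte-like cells, 75 of 742 in the Control and 39 of 709 in the TBI library held one. Whether the counting kept the strands apart is not given in the sources used here, and the part of Med12l in the P2ry12 counts was not tested.

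In microglia-like cells the proportions of the C1q genes to each other were close in both libraries. In the Control library C1qa stood at 6565 CPM, C1qb at 6671 CPM and C1qc at 4489 CPM, and in the TBI library at 5924, 6028 and 3779 CPM. The ratio of C1qb to C1qa UMIs was 1.02 in both libraries (0.939 to 1.10 in the Control and 0.964 to 1.07 in the TBI library), and that of C1qc to C1qa was 0.684 (0.626 to 0.747) and 0.638 (0.600 to 0.678). By cluster, C1qc to C1qa was 0.716 (0.650 to 0.789) in RNA-rich and 0.550 (0.441 to 0.682) in low-RNA Control cells. In the TBI library it was 0.641 and 0.612. In the RNA-rich cluster all 81 cells held each of the 3 genes, with 12 to 100 UMIs of C1qa in a cell. Outside microglia-like cells C1qb reached 2.99 CPM at most in the Control library, in endothelial-like cells, where all 4 UMIs were in a single cell.

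Trem2 stood at 1759 CPM in the Control and 1926 CPM in the TBI microglia-like cells, and Tyrobp at 2493 and 2151 CPM. Over the populations next in order, endothelial-like cells in the Control and RG-like cells in the TBI library, Trem2 was at least 784-fold and at least 1102-fold higher, and Tyrobp at least 1111-fold and at least 1230.2-fold, at a floor of 3 UMIs. OPC-like cells had 0 UMIs of both genes at the floor of 13.6 and 8.21 CPM. In the RNA-rich cluster there were 1.07 UMIs of Tyrobp for each UMI of Trem2 in the Control library (0.903 to 1.27) and 0.994 in the TBI library (0.898 to 1.10). In the low-RNA cluster the ratio was 2.69 (2.04 to 3.58) and 2.22 (1.71 to 2.89).

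By level over all their cells, the 2 microglia-like clusters differed in the homeostatic genes and in Tyrobp. Cx3cr1 was lower in the low-RNA cluster, at 569 CPM against 3717 CPM in the Control library, a ratio of 0.153 (0.0927 to 0.238), and at 716 against 2808 CPM in the TBI library, with 0.255 (0.176 to 0.358). P2ry12 had ratios of 0.280 (0.175 to 0.427) and 0.396 (0.265 to 0.570), and Tmem119 of 0.179 (0.0762 to 0.359) and 0.173 (0.0823 to 0.320). The intervals of C1qa included 1, with ratios of 1.06 (0.917 to 1.22) and 0.999 (0.879 to 1.13), and so did those of Trem2, with 1.19 (0.900 to 1.55) and 0.945 (0.749 to 1.18). C1qb had ratios of 1.14 and 0.979, and C1qc of 0.813 (0.670 to 0.979) and 0.953. Tyrobp was higher in the low-RNA cluster, at 5429.7 against 1823 CPM in the Control library, a ratio of 2.98 (2.47 to 3.59), and at 4063 against 1925 CPM in the TBI library, with 2.11 (1.79 to 2.47). The 9 genes had no part in the clustering, but genes that vary with them did, so these ratios are a description.

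Single cells of the Control library showed the same order by their medians. Among the RNA-rich Control cells Cx3cr1 ran from 1168 to 6089 CPM with a median of 3796, and among the low-RNA Control cells from 0 to 1929 CPM with a median of 375. For Tyrobp the RNA-rich Control cells ran from 609 to 3420.0 CPM with a median of 1887, and the low-RNA ones from 2349 to 11512 CPM with a median of 5529, so that the ranges overlapped between 2349 and 3420.0 CPM. In the TBI library 82.1% of low-RNA and 100% of RNA-rich cells held a UMI of Tyrobp. Some TBI low-RNA cells therefore lay at 0, below every RNA-rich one. Tmem119 had a median of 0 in the low-RNA cells of both libraries, with a UMI in 5 of 18 Control and 6 of 28 TBI cells. Depth bears on such shares. Thinned to 2000 UMIs, which left out 30 of the 46 low-RNA cells and none of the RNA-rich ones, all 8 genes were found in 62 of 81 RNA-rich cells, 76.5% (65.8% to 85.2%), and in 3 of 16 low-RNA cells, 18.8% (4.05% to 45.6%). In the same thinned cells Tmem119 was found in 86.4% of RNA-rich and 18.8% of low-RNA cells, and Tyrobp in 96.3% and 87.5%. Trem2 was found in 96.3% of RNA-rich and 68.8% of low-RNA cells. C1qa, C1qb and C1qc were each found in all RNA-rich cells and in 68.8% of low-RNA cells. Thinned to 1000 UMIs, which kept 40 low-RNA cells, C1qa was found in 85.0% of them. Low-RNA cells without these genes add to the doubt about the name of this cluster, and the cause was not tested.

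**Figure D2:**
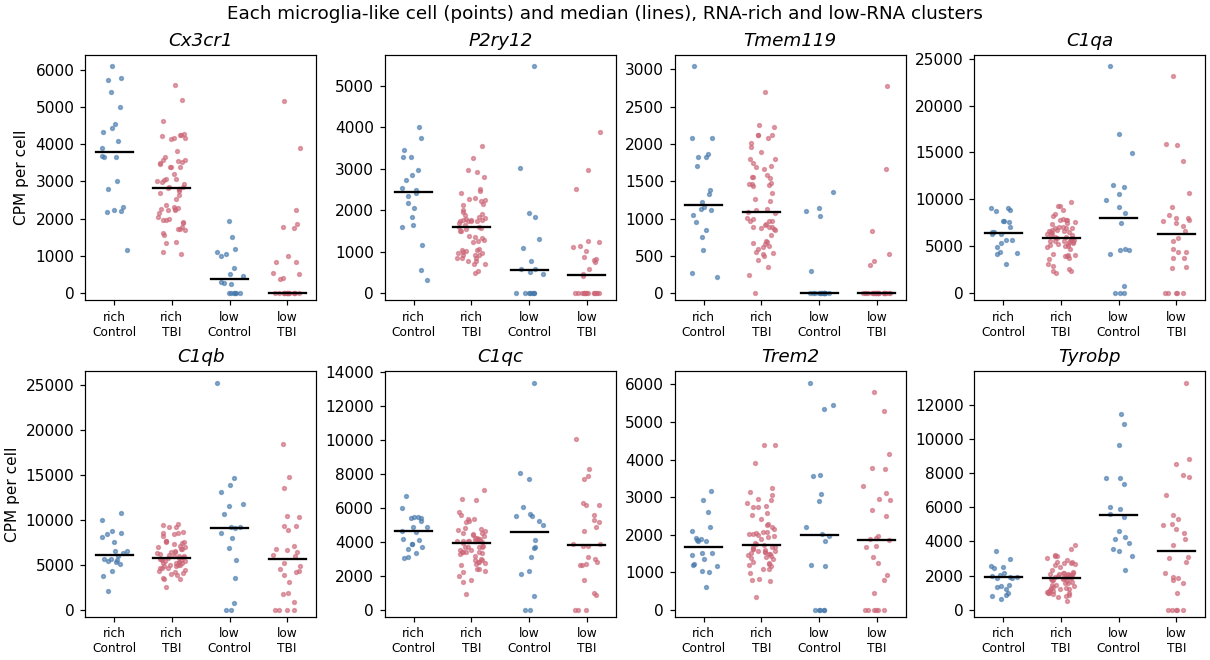
Level in CPM (vertical axes) of 8 genes in each of the 127 microglia-like cells (points), by cluster and library, with medians as lines. Cx3cr1, P2ry12 and Tmem119 sit lower in the low-RNA cells, C1qa, C1qb, C1qc and Trem2 overlap widely, and Tyrobp sits higher, with medians of 5529 against 1887 CPM in the Control library.

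None of the 8 genes differed 2-fold between the libraries in microglia-like cells. Among 4426 genes with at least 20 UMIs in these cells, 3.50% were at least 2-fold lower and 4.99% at least 2-fold higher in the TBI library. At the counting depth of the 8 genes, 0 of 140 genes were at least 2-fold lower and 3, or 2.14%, at least 2-fold higher, so that staying within 2-fold was common at this depth. The ratio of the TBI to the Control level was 0.739 for P2ry12 (0.651 to 0.840) and 0.826 for Cx3cr1 (0.748 to 0.913), but 1.03 for Tmem119 (0.875 to 1.22). It was 0.902 for C1qa (0.843 to 0.966), 0.904 for C1qb (0.845 to 0.967) and 0.842 for C1qc (0.775 to 0.915). Trem2 had a ratio of 1.10 (0.964 to 1.25) and Tyrobp of 0.863 (0.772 to 0.965). The order of the genes depended on the weight of the cells: as a mean over cells, in which each low-RNA cell counts as much as an RNA-rich one, Tyrobp came to 0.671, P2ry12 to 0.777, C1qb to 0.785 and Cx3cr1 to 0.967. The median log2 ratio of the 8 genes was -0.18, with 6 of 8 below 0, beside -0.01 over all 4426 genes and 0.13 over the 140 genes with at least as many UMIs as the lowest of the 8, of which 37.9% were below 0. When the median ratio of the 3068 genes with at least 10 UMIs in each library was set to 1, all log2 ratios rose by 0.11. C1qa and C1qb then came to 0.974 and 0.975. The limit is harder to reach with the 189341 UMIs of the Control than with the 449541 of the TBI cells. It can therefore favour genes that are higher in the Control library. The median of the 140 genes, at 0.13, would move the ratios the other way.

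The ratios were also taken within each cluster. In the RNA-rich cluster, where 4.24% of 4108 genes were at least 2-fold lower and 5.87% at least 2-fold higher in TBI, the ratio was 0.684 for P2ry12 (0.600 to 0.780) and 0.756 for Cx3cr1 (0.683 to 0.837). The P2ry12 level there ran from 319 to 3996 CPM in the 20 Control cells with a median of 2447, and from 494 to 3536 CPM in the 61 TBI cells with a median of 1601. The Cx3cr1 medians were 3796 and 2811 CPM. The ranges overlapped, and 54 of the 61 TBI cells lay below the Control median for P2ry12 and 50 for Cx3cr1. Tmem119 had a ratio of 0.959 (0.811 to 1.14), with 33 of 61 TBI cells below the Control median. Tyrobp turned from 0.863 in all microglia-like cells to 1.06 (0.920 to 1.22) in the RNA-rich cluster and 0.748 (0.609 to 0.919) in the low-RNA cluster. In the low-RNA cluster Cx3cr1 had a ratio of 1.26 and P2ry12 of 0.966, from 54 and 53 UMIs, with intervals of 0.704 to 2.31 and 0.543 to 1.74.

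**Figure D3:**
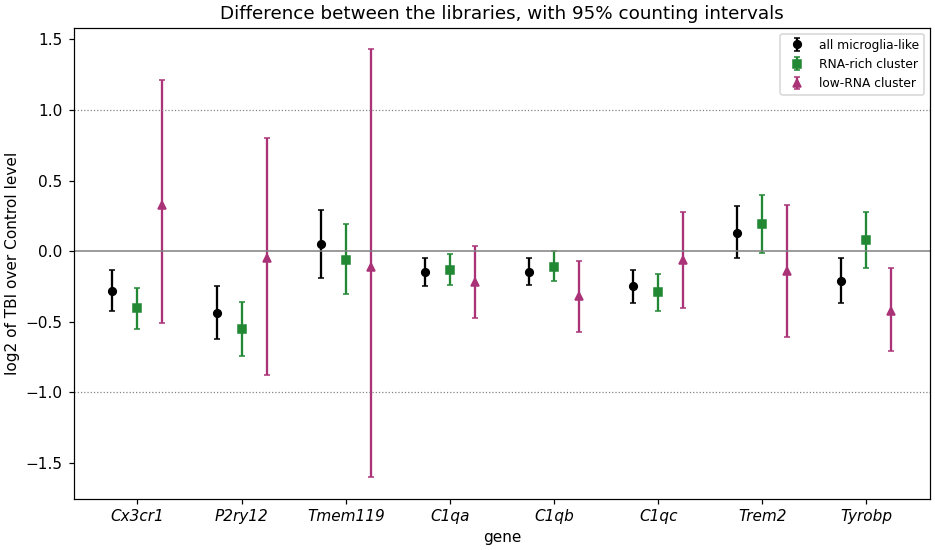
Log2 of the TBI over the Control level (vertical axis) for 8 genes in all microglia-like cells, the RNA-rich cluster and the low-RNA cluster, with 95% counting intervals as bars; dotted lines mark a 2-fold difference. P2ry12 and Cx3cr1 lie lowest in the RNA-rich cluster, at -0.55 and -0.40, and none of the points passes a dotted line.

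Values that moved with the libraries are given here, and their part in the ratios was not tested. Immediate early and stress genes, which cell dissociation is known to induce, had a median log2 ratio of -0.33 over 14 measured genes in microglia-like cells. Of these 1, Hspa1a, was at least 2-fold lower in TBI and 0 higher, beside 3.50% and 4.99% of all 4426 genes. Jun stood at 6475 and 4800.5 CPM and Egr1 at 3581 and 2752 CPM. Junb stood at 5973 and 5637 CPM and Nfkbia at 2525 and 3083 CPM. Hspa1a, at 206 and 95.7 CPM, and Fos, at 2324 and 1186 CPM, were named after their values were seen. Mitochondrial UMIs had medians of 4.23% in the Control and 5.68% in the TBI microglia-like cells. The 10 naming markers summed to 19906 CPM in the Control and 15698 CPM in the TBI cells, a difference in the same direction as that of P2ry12 and Cx3cr1. All 10 astrocyte markers were detected in microglia-like cells, with sums of 317 CPM in the Control and 507 CPM in the TBI library and up to 1821 and 10774 CPM in a single cell.

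Spp1 was not detected in microglia-like cells at this depth. It had 0 UMIs in all 127 cells, which allows up to 2.36% of such cells with a UMI, at 3 counts, and says less of cells that express the gene, since the low-RNA cells held few UMIs. It allows a level of up to 15.8 CPM in the Control and 6.67 CPM in the TBI library, at 3 UMIs each. The 906 UMIs of Spp1 lay elsewhere: 97.7% of the Control and 98.2% of the TBI UMIs were in cells named mural-like, by markers of vessel wall cells that include the collagen genes Col1a1 and Col1a2. Within them, the 30-cell cluster led by Dcn, Slc6a13, Lum and Col1a1 held 765 UMIs, 84.4% of all. Of the 8 mural markers its top 10 genes held Col1a1 and Col1a2, and none of Vtn, Pdgfrb, Kcnj8 and Rgs5, which are known from pericytes, so that Spp1 is described here by this cluster's leading genes. The level in that cluster was 8793 CPM (7905 to 9754) in the 12 Control cells and 5388 CPM (4878 to 5937) in the 18 TBI cells, against 24.6 CPM (16.5 to 35.3) and 46.1 CPM (37.2 to 56.4) in the other mural-like clusters. The cluster held 0 UMIs of the 7 genes of the list other than Spp1 and Tmem119, and 0 of Csf1r and Cd68.

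The library ratio of Spp1 in that cluster, 0.613 (0.530 to 0.708), rested on 1 cell. The Control cells ran from 0 to 200 UMIs with a median of 9, and 1 cell held 56.0% of their Spp1 UMIs. Without it the ratio was 1.13 (0.940 to 1.37). The TBI cells ran from 3 to 65 UMIs with a median of 16. By the level in each cell the medians were 3239 CPM in the Control and 4269 CPM in the TBI library. Spp1 was found in 8 of 12 Control and 18 of 18 TBI cells. In the other mural-like clusters the ratio was 1.87 (1.22 to 2.95), from 29 and 94 UMIs, while the share of cells with a UMI was 5.58% and 5.60%.

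**Figure D4:**
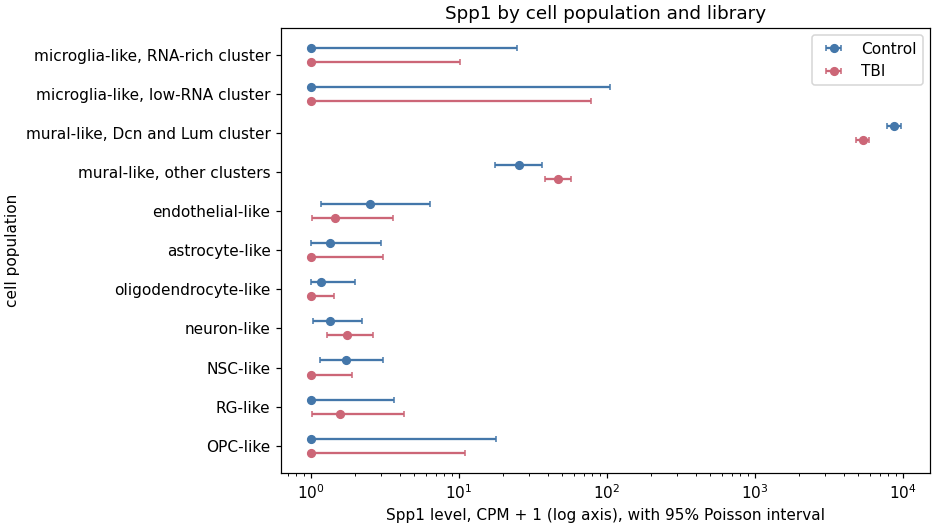
Spp1 level (horizontal axis, CPM + 1 on a log scale) by cell population in the Control and TBI libraries, with 95% Poisson intervals as bars. The mural-like cluster led by Dcn and Lum lies at 8793 and 5388 CPM, and both microglia-like clusters lie at 0 CPM.

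Other genes of these pathways were read from fixed lists, and a gene counted as measured with at least 20 UMIs. Over all 4426 such genes in microglia-like cells, 3.50% were at least 2-fold lower and 4.99% at least 2-fold higher in TBI. The counts of listed genes past 2-fold stand beside these shares. All 16 other homeostatic genes were measured in microglia-like cells, 0 of them differed 2-fold between the libraries, and their median log2 ratio was -0.03. Selplg, a ligand of selectins, stood at 1521 and 1168 CPM (ratio 0.768, interval 0.664 to 0.890). Hpgds and Itgb5 stood at 808 and 874 CPM and at 882 and 943 CPM.

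Of 21 other genes of disease-associated microglia, 14 had at least 20 UMIs, 2 of these were at least 2-fold lower and 1 at least 2-fold higher in TBI, and the median log2 ratio was -0.06. The higher one was Apoe, the main lipid carrier of the brain and a ligand of Trem2, at 665 CPM in the Control and 2153 CPM in the TBI library (ratio 3.24, interval 2.69 to 3.93). It was 2.73 (2.13 to 3.54) in the RNA-rich cluster. That cluster held 73 of the 126 Control and 520 of the 968 TBI UMIs of Apoe. The rest came from the low-RNA cluster, whose name is less sure. Cells ran from 0 to 9009 CPM of Apoe in the Control library with a median of 235, and from 0 to 53423 CPM in the TBI library with a median of 518, so the ranges overlapped. Astrocytes make Apoe too, and the part of the astrocyte marker RNA given above in its level was not tested. The 2 lower ones, named after their values were seen, were Csf1, the ligand of Csf1r, with 21 Control and 7 TBI UMIs, and Ank, with 11 in either library. Ctsd, a lysosomal protease, stood at 7188 and 6627 CPM, Fth1, the ferritin heavy chain, at 3607 and 4640.3 CPM, and B2m at 1843 and 1735 CPM. As with Spp1, Gpnmb and Igf1 had 0 UMIs in the 127 cells, and Lpl, Cst7, Itgax, Axl and Lgals3 had fewer than 20. These too were named after their values were seen. In the RNA-rich cluster 2 of 14 measured genes of this list were at least 2-fold lower and 2 higher in TBI. The shares of all 4108 genes there were 4.24% and 5.87%. The 2 higher ones were Apoe and Lyz2, the latter named after its values were seen.

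Of 10 partners of Trem2 and Tyrobp in signalling, 8 were measured, 0 passed 2-fold, and the median log2 ratio was 0.05. Fcer1g, an adaptor akin to Tyrobp, stood at 1901 and 1697 CPM, Sirpa at 713 and 581 CPM, Fcgr3 at 565 and 625 CPM and Inpp5d, which restrains this signalling, at 369.7 and 360.4 CPM. Of 12 complement genes other than C1q, 4 were measured, and 1, the anaphylatoxin receptor C5ar1, was at least 2-fold lower in TBI, at 185 and 64.5 CPM, a ratio of 0.349 (0.206 to 0.588). Itgam, a subunit of complement receptor 3, stood at 539 and 518 CPM and C3ar1 at 354 and 289 CPM. The median log2 ratio of these 4 was -0.28. C1s1 and C2, which act after C1q in the classical pathway, had 0 UMIs in the 127 cells and were named after their values were seen. C1ra and C4b of the same list were not at 0 but had fewer than 20 UMIs.

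Of 8 ligands and receptors of the listed genes, 5 were measured and 0 passed 2-fold, with a median log2 ratio of 0.12, among them Calr, a binding partner of C1q, at 787 and 869.8 CPM and the integrin chain Itgb1 at 137 and 160.2 CPM. Lrp1 stood at 169 and 147 CPM and Itgav at 73.9 and 80.1 CPM. Of 12 cytokine and chemokine genes 10 were measured, and 1, Cxcl10, named after its values were seen, was at least 2-fold higher in TBI, with 2 UMIs in the Control and 33 in the TBI library (ratio 6.95, interval 1.78 to 59.8). Ccl4 stood at 2282 and 2111 CPM, Ccl3 at 1019 and 1066 CPM, Il1a at 776 and 796 CPM and Tgfb1 at 449 and 465 CPM. In the RNA-rich cluster 2 of 10 measured genes of this list, Cxcl10 and Il1b, were at least 2-fold higher and 0 lower in TBI. Of all 4108 genes there 5.87% were at least 2-fold higher and 4.24% lower, and Il1b was named after its values were seen. Of 6 proliferation genes only Stmn1 was measured, at 79.2 and 120.1 CPM, and Mki67 had 0 UMIs in the 127 cells.

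Among 920 genes with at least 100 UMIs in microglia-like cells and 10 in each library, the highest ratios belonged to Cebpb, a transcription factor of inflammatory genes, at 3.25 (2.39 to 4.52), Apoe and Bach1, a repressor of the haem response, at 3.06 (1.95 to 5.03). Cebpb was found in 13 of 38 Control and 63 of 89 TBI cells. The lowest belonged to Ccl5 at 0.190, which came from 1 Control and 4 TBI cells, Rgs1 at 0.432 (0.313 to 0.596) and Camk2n1 at 0.446 (0.298 to 0.671). The ratios of the 8 listed genes, 0.739 to 1.10, lay well inside this range.

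Over 9 named populations of 2 libraries, 18 points in all, the genes whose levels were most like those of each listed gene were taken by Pearson's r, as a description. For Cx3cr1 Ccl12 had an r of 0.997. For P2ry12 these were Fcgr3 and Rasa4 with 0.971, and for Tmem119 Fgd2 with 0.993 and Alox5ap with 0.991. C1qa had Ctss and Itgam with 0.989, C1qb Itgam with 0.983 and Ly86 with 0.982, and C1qc Itgam with 0.994 and Ccl12 with 0.993. Trem2 had Ly86 with 0.996 and Rhoh with 0.995, and Tyrobp Fcrls with 0.996 and Ly86 with 0.995. Spp1 stood apart, with Tbx15 at 0.993 and Dhx58os at 0.992. For the 8 genes other than Spp1 all points but the microglia-like ones lay at or below 10.7 CPM, so that r mostly records this contrast, and points of a library share its depth.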

How the data were processed

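The authors counted UMIs with Cell Ranger 3.0.2 on mm10 (version and build per the labels), and the deposited values are raw counts per gene and cell barcode. The sample sheet was not used. Barcodes were kept with at least 200 genes and with total UMIs no more than 3 median absolute deviations from their library's median, which left 8085. Scrublet in scanpy 1.11.5 called 38 Control and 109 TBI doublets, which were left in. Clustering used Seurat 5.3.0 (R 4.3.3): 2000 variable genes, of which Malat1 and the 9 genes were dropped, integration over 20 dimensions, 20 components and resolution 3.0. Each rebuilt cluster took the name whose fixed markers had the highest mean standardized level, with at least 3 of them in 10% of cells, so names may differ from the study's. A cluster below 0.333 of its library's median depth needed a marker among its top 10 genes. Poisson, Clopper-Pearson and conditional binomial intervals came from scipy 1.17.1 (python 3.11.15). Only the conditional binomial interval was tested on simulated data, which were Poisson sums without spread between cells. Genes past 2-fold were counted among those with at least 20 UMIs. Named were the 4 most counted genes of each list, the 3 highest and 3 lowest ratios and the 2 genes most like each listed gene. A few genes that this rule names are not reported here. The listed genes, lists and markers were chosen with earlier results of these data known. Alternatives covered cell filters, doublets, integration, resolution, choice of cells, scaling, free RNA, thinning and the count limit.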

Additional observations from a re-analysis of the deposited data

How the results depend on the processing

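No paired analysis was possible because the animals of a condition were pooled, and for the same reason no replicate could be left out. The summed level of the 9 genes in microglia-like cells had a TBI to Control ratio of 0.886 and stayed below 1 under all 15 alternatives. Without the filter on cells, without integration and at resolution 1.0 the class again held 127 cells, with the same ratio of 0.886. These settings therefore tested little. It was 0.919 in cells with a UMI of both Csf1r and Cd68, 0.957 with the median ratio of genes set to 1, 0.834 as a mean over cells and, added after seeing the data, 0.850 in the low-RNA cluster. The direction turned for Tyrobp, to 1.01 in cells with both Csf1r and Cd68 and 1.06 in the RNA-rich cluster, for Cx3cr1, to 1.26 in the low-RNA cluster, and for Spp1 in the Dcn and Lum cluster, to 1.13 without 1 cell. Trem2 (1.10) and Tmem119 (1.03), whose intervals included 1, also fell below 1: Trem2 to 0.996 as a mean over cells and 0.908 in the low-RNA cluster, and Tmem119 to 0.967 in cells with both Csf1r and Cd68, 0.959 in the RNA-rich and 0.926 in the low-RNA cluster. Trem2 moved up as well, to 1.17 (1.02 to 1.34) without cells over 10% mitochondrial UMIs and 1.18 (1.03 to 1.37) in cells with both Csf1r and Cd68. With the median ratio of genes set to 1, which raised all ratios, Trem2 came to 1.18 (1.04 to 1.35). The ratios of P2ry12 (0.684 to 0.966), C1qa (0.857 to 0.974), C1qb (0.785 to 0.977) and C1qc (0.817 to 0.958) stayed below 1 throughout. The share of the 8 genes' UMIs in microglia-like cells, 98.39%, was 98.61% without cells over 10% mitochondrial UMIs, 98.93% without the outside cells with 5 or more such UMIs (added after seeing the data) and 84.57% in cells with both Csf1r and Cd68, which are fewer by construction. Spp1 had 0 UMIs in microglia-like cells under all 8 alternatives of clustering and cell choice. These largely counted the same cells again, so they could hardly have turned out otherwise. The 88 cells with both Csf1r and Cd68, for example, are a part of the 127. All 8 genes were found in 67.0% of thinned microglia-like cells, in 23.1% at 1000 UMIs, and, added later, in 76.5% of the RNA-rich and 18.8% of the low-RNA cluster. Genes past 2-fold made up 8.5%, and 3.01% with at least 50 UMIs. The causes were not tested. Depth limits the low-RNA cluster most, but its shares of cells with the C1q genes and Trem2 were also lower in thinned cells.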
